A study of Mus musculus with 12 samples.

Results

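Herpud1 and 9 further genes of the endoplasmic reticulum (ER) stress response were followed in mouse macrophages given hepcidin. The 10 genes were taken by name from the 24675 named genes measured here: Herpud1, Hspa5, Xbp1, Atf6, Dnajb9, Sdf2l1, Edem1, Hsp90b1, Sel1l and Creld2. All 10 had a probe set on the array. No filter on low values was applied. By their mean probe set value over all arrays the 10 stood between the 83.5th percentile of all genes (Creld2) and the 99.6th (Hsp90b1), which describes the signal and gives no order of abundance between genes. The cells were bone marrow-derived macrophages, which are bone marrow precursors grown into macrophages, here for 7 days in medium with 30% L cell-conditioned medium (a source of the growth factor M-CSF) and 20% serum. Donors were wild-type mice aged 8 to 10 weeks. The adherent cells were replated in 15% conditioned medium and 10% serum, then moved to DMEM without additions for 1 h before hepcidin or PBS was given, so all 4 groups had that change of medium in common. Hepcidin, a liver peptide, lowers iron export by binding ferroportin. Its concentration is not settled by the labels, which name 1 µg/ml in one protocol and 10 µg/ml in another. The groups were PBS for 1 h, hepcidin for 1 h, PBS for 3 h and hepcidin for 3 h, each with 3 samples hybridised to 1 Affymetrix whole-transcript array each. Whether a group's 3 samples are separate mice or cultures is not said in the labels used here. The p-values therefore measure only how these samples spread, and that spread may be technical.

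Secreted and membrane proteins fold in the ER with the help of chaperones. When unfolded proteins accumulate, the sensors ATF6, IRE1 (gene Ern1) and PERK (gene Eif2ak3) start the unfolded protein response: ATF6 is cut to release a transcription factor, IRE1 splices Xbp1 mRNA so that it encodes an active factor, and PERK phosphorylates eIF2alpha, which favours translation of ATF4. ATF6 and XBP1 raise chaperone genes and the genes of ER-associated degradation, which sends misfolded proteins out of the ER to the proteasome. ATF4 is shared with other stresses, amino acid shortage among them. Herpud1 encodes a membrane protein of the ER that assembles with the degradation machinery and is a known target of both arms.

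The stretches upstream of 4 of these genes are shown because they hold the composite elements that ATF6 and XBP1 are known to bind, and because Herpud1 changed with hepcidin while the other 3 did not pass the test. The sequences come from RefSeq (GRCm38.p6), which gave a window for 9 of the 10 genes. Each is the 250 bases before the annotated start of transcription, 5′ to 3′ on the strand of the gene: chr8:94386179-94386428 (plus strand) for Herpud1, chr2:34771840-34772089 (plus strand) for Hspa5, chr10:86705445-86705694 (minus strand) for Hsp90b1 and chr15:88819396-88819645 (plus strand) for Creld2. Capitals mark the ER stress response element (ERSE, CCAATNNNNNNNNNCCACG), its relative ERSE-II (ATTGGNCCACG) and the C/EBP-ATF composite site (TGATGCAA), on either strand.
Herpud1: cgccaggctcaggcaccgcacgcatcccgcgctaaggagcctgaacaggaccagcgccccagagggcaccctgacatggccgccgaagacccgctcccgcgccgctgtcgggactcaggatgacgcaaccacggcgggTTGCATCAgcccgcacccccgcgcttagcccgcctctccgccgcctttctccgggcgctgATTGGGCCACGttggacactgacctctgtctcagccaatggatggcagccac
Hspa5: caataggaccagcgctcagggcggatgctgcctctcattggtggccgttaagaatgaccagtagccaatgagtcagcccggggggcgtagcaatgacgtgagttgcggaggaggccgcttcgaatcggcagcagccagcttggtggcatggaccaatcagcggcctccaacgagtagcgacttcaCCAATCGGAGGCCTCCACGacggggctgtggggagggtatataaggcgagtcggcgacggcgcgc
Hsp90b1: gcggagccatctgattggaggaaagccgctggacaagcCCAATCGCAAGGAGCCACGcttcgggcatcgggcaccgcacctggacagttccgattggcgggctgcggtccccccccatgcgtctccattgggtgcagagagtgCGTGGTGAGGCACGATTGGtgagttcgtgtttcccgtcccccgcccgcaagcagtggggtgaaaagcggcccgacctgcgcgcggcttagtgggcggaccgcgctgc
Creld2: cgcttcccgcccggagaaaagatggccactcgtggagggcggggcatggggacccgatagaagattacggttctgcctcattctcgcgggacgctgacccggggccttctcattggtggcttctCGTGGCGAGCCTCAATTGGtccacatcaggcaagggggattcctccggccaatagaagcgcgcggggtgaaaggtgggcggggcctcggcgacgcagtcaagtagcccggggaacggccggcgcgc
In Herpud1 the first run of capitals, at bases -112 to -105 from the start of transcription, is the C/EBP-ATF composite site read on the opposite strand. The second, at bases -52 to -42, is ERSE-II. Only matches wholly inside the window were counted. From base -18 the Herpud1 window matches ERSE as far as it runs, but the last base of the pattern lies beyond it. Whether Herpud1 has an ERSE there is thus not shown.
Near matches were not sought. Counting exact matches only, Hspa5 holds 1 ERSE at bases -65 to -47. Hsp90b1 holds 2, at bases -212 to -194 and, on the opposite strand, at bases -107 to -89. Creld2 holds 1 on the opposite strand at bases -126 to -108.

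Among all 32851 upstream windows of this length, ERSE was found in 37 (0.113%), ERSE-II in 10 (0.0304%) and the C/EBP-ATF composite site in 260 (0.791%). Herpud1 was the only one of the 9 genes with ERSE-II or the composite site. The parts of ERSE on their own are common: CCACG stood in 28.3% and CCAAT in 33.8% of all windows, and each stood in 8 of the 9 genes, all but Xbp1. Those counts include the ones that lie inside ERSE and ERSE-II. The UPR element core TGACGTGG (0.563% of windows), an NF-kB site GGGANNTTCC (1.21%) and the cyclic AMP response element TGACGTCA (1.55%) matched none of the 9. A match describes the letters of the window and does not show that a factor is bound there. Whether these elements bear on the changes with hepcidin was not tested.

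**Figure D1:**
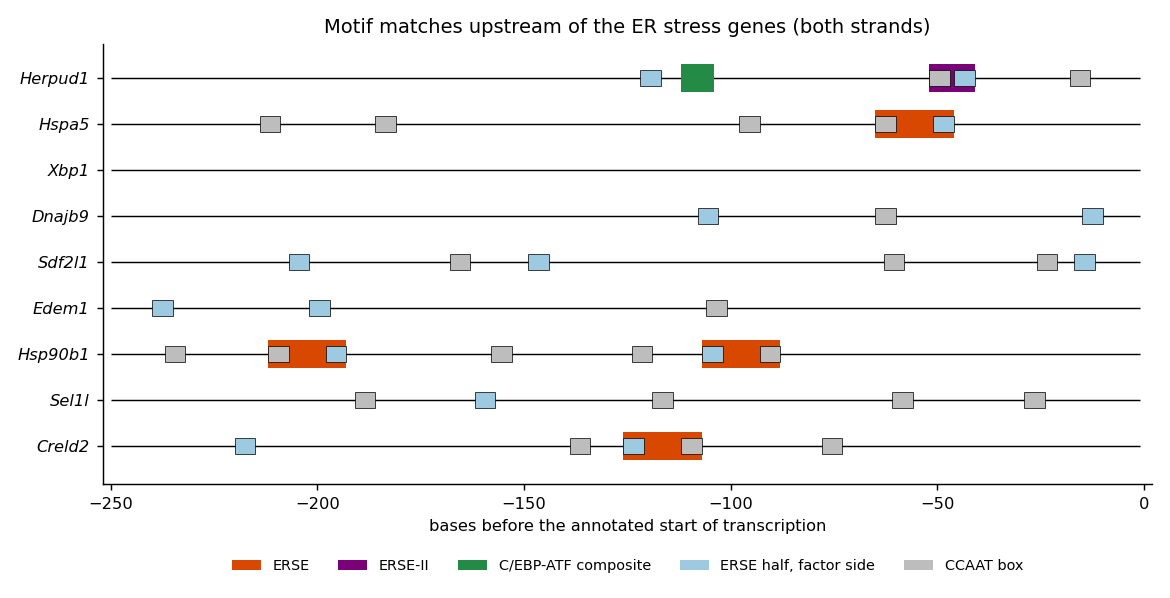
Motif matches in the 250 bases before the annotated start of transcription (x axis, in bases) for the 9 genes with a RefSeq window; each block is a match on either strand, with the single CCACG and CCAAT matches drawn narrower. Herpud1 alone carries ERSE-II and the C/EBP-ATF composite site, while the windows of Hspa5, Hsp90b1 and Creld2 hold a whole ERSE. In Herpud1 a partial match to ERSE runs past the end of the window and is not drawn as ERSE.

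Herpud1 rose with hepcidin at 3 h and fell with time in the PBS cells. In the PBS groups its log2 expression was 9.03, 9.17 and 9.27 at 1 h and 8.28, 8.32 and 8.52 at 3 h. In the hepcidin groups it was 9.37, 9.41 and 9.71 at 1 h and 10.06, 10.12 and 10.20 at 3 h. All 3 hepcidin arrays at 3 h lay above every other array of the study, all 3 PBS arrays at 3 h lay below every other, and no pair of groups overlapped. The group means were 10.13 ± 0.07 (SD, n = 3) with hepcidin at 3 h, 9.49 ± 0.18 with hepcidin at 1 h, 9.16 ± 0.12 with PBS at 1 h and 8.37 ± 0.13 with PBS at 3 h.

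At 3 h Herpud1 was 1.76 higher with hepcidin on the log2 scale (SE 0.10, 95% interval 1.53 to 1.98, 3.38-fold, limma with Benjamini-Hochberg adjusted p = 5.97e-07), the 45th highest change of the 24675 genes. At this time 5.33% of all genes were called (adjusted p under 0.05 over all named genes). At 1 h, when 0.559% of all genes were called, the difference was 0.34 (SE 0.10, 95% interval 0.11 to 0.56) and did not pass (adjusted p = 0.398), although the groups did not overlap. The hepcidin effect at 3 h exceeded that at 1 h by 1.42 (SE 0.15, 95% interval 1.10 to 1.74, adjusted p = 0.000765), a difference called in 1.03% of all genes.

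Both treatments moved Herpud1 between 1 h and 3 h, in opposite directions. Between 1 h and 3 h Herpud1 fell by 0.79 in the PBS groups (SE 0.10, 1.73-fold lower, adjusted p = 0.00913), where 0.45% of all genes were called. In the hepcidin groups it rose by 0.63 (SE 0.10, 1.55-fold, adjusted p = 0.00316), where 5.05% were called. The fall in PBS missed the threshold without PBS 3 h replicate 3 (adjusted p = 0.0520) and when only the compared groups were fitted (adjusted p = 0.0551). These comparisons share arrays, so the 3 h difference and the changes with time are not independent of each other. In such bulk samples fewer cells expressing a gene and less RNA per cell cannot be told apart.

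**Figure D2:**
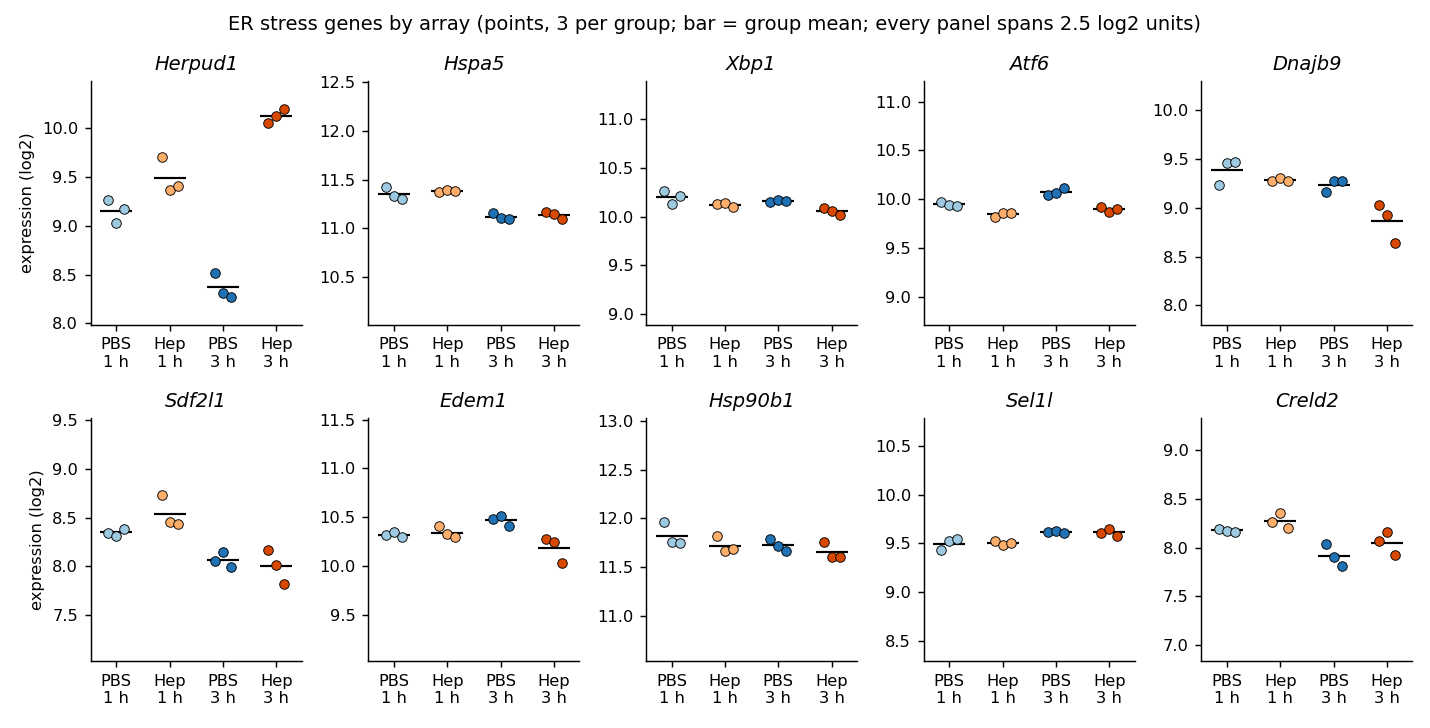
Log2 expression (y axis) of each of the 10 genes in every array, 3 points per group, with the group mean as a bar; every panel spans the same range, and levels are not comparable between genes. Herpud1 separates all 4 groups, from 8.28 to 8.52 with PBS at 3 h to 10.06 to 10.20 with hepcidin at 3 h, while the other 9 genes move little on this scale.

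The major ER chaperone genes did not rise with Herpud1. Hspa5 encodes BiP, the Hsp70 chaperone of the ER and the classical readout of the unfolded protein response. It read 11.09, 11.11 and 11.16 with PBS and 11.10, 11.15 and 11.17 with hepcidin at 3 h. The ranges overlapped, and the difference was 0.02 (95% interval -0.11 to 0.15, adjusted p = 0.921). At 1 h it was 0.03 (95% interval -0.10 to 0.16, adjusted p = 0.982). Hsp90b1 encodes GRP94, the Hsp90 chaperone of the ER. Its values overlapped too, at 11.67 to 11.79 with PBS and 11.61 to 11.76 with hepcidin at 3 h, a difference of -0.07 (95% interval -0.24 to 0.11, adjusted p = 0.747). The upper ends of the 3 h intervals of Hspa5 and Hsp90b1 lay below the lower end of that of Herpud1 (1.53).

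Creld2, an ER-resident protein with disulfide isomerase activity that is induced by ER stress, was 0.13 higher with hepcidin at 3 h (95% interval -0.04 to 0.31, adjusted p = 0.462), with overlapping values of 7.81 to 8.04 and 7.92 to 8.16. Sdf2l1 encodes a partner of BiP and Dnajb11. It stood at 8.43, 8.45 and 8.73 with hepcidin against 8.32, 8.34 and 8.39 with PBS at 1 h, a difference of 0.19 that did not pass (adjusted p = 0.801). At 3 h the difference was -0.07 (95% interval -0.28 to 0.15, adjusted p = 0.810).

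Dnajb9 encodes ERdj4, a co-chaperone of BiP that hands misfolded proteins to degradation and restrains IRE1. It was lower with hepcidin at 3 h, at 8.64, 8.93 and 9.03 against 9.16, 9.27 and 9.28 with PBS, and the groups did not overlap. The difference of -0.37 (SE 0.10, 95% interval -0.59 to -0.16) missed the threshold narrowly (adjusted p = 0.05003). It passed without PBS 1 h replicate 1 (adjusted p = 0.0423), without hepcidin 3 h replicate 1 (0.0252), with a trended and robust prior (0.0180), with genes above the median level (0.0245), with a second quantile normalization (0.0373), with array weights (0.0479) and with unnamed probe sets included (0.0497). Its adjusted p was 0.161 at its highest over 23 alternatives. At 1 h the values overlapped (-0.10, adjusted p = 0.931).

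Among the degradation genes other than Herpud1, Edem1 was the only one of this set to be called at 3 h, and downward. It encodes a lectin that extracts misfolded glycoproteins from the folding cycle. Its values were 10.41, 10.48 and 10.51 with PBS and 10.03, 10.24 and 10.28 with hepcidin, without overlap, and hepcidin 3 h replicate 3 was the lowest. The difference of -0.28 (SE 0.07, 95% interval -0.45 to -0.12) had adjusted p = 0.0480. That call was lost when any single array other than hepcidin 3 h replicate 1 was left out (11 of 12 arrays, adjusted p from 0.0546 to 0.162), with median centring (0.0930), with array weights (0.0576) and with only the compared groups in the fit (0.167). Sel1l, the adaptor of the HRD1 ubiquitin ligase with which Herpud1 protein assembles, differed by -0.00 at 3 h (95% interval -0.13 to 0.13, adjusted p = 0.992) and by 0.01 at 1 h (adjusted p = 0.996).

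The 2 transcription factor genes of the set moved little. Xbp1 read 10.15, 10.16 and 10.17 with PBS and 10.02, 10.05 and 10.09 with hepcidin at 3 h, a difference of -0.10 (95% interval -0.24 to 0.03, adjusted p = 0.429). A gene-level array value does not show whether Xbp1 mRNA was spliced. Atf6 was 10.04, 10.06 and 10.11 with PBS and 9.87, 9.90 and 9.92 with hepcidin at 3 h. The Atf6 groups did not overlap, and the difference of -0.17 (SE 0.06, 95% interval -0.30 to -0.05) did not pass (adjusted p = 0.114), but it did with a trended and robust prior (0.0179), with an unmoderated linear model (0.00317) and when only genes above the median level were tested (0.0325). Cleavage of ATF6 protein is not visible in mRNA.

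**Figure D3:**
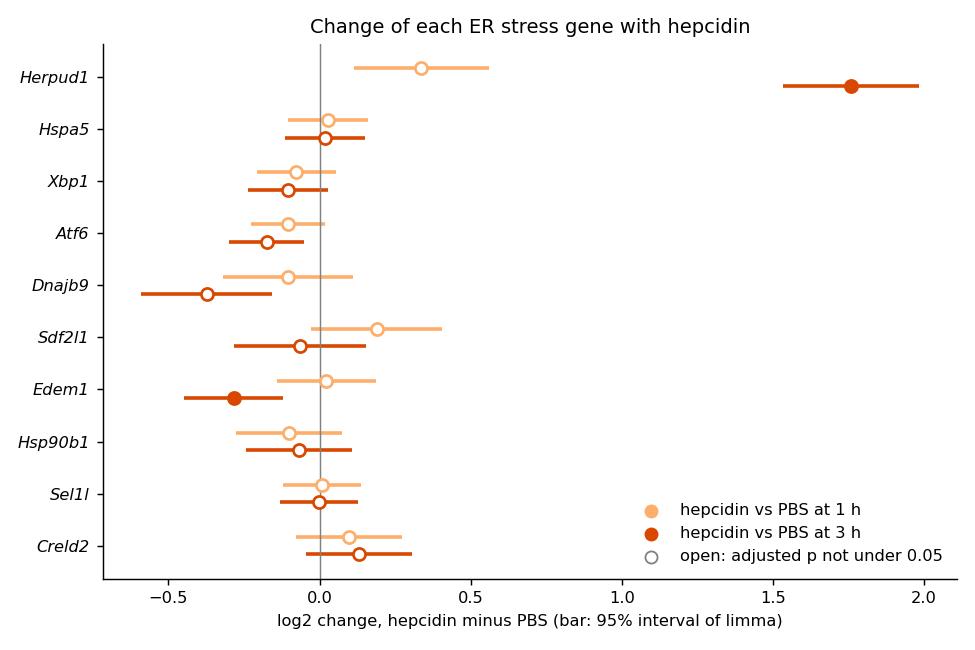
Log2 change with hepcidin relative to PBS (x axis) for each of the 10 genes at 1 h and 3 h; bars are 95% intervals from limma, and open points did not pass an adjusted p of 0.05. Herpud1 stands at 1.76 at 3 h, while the other 9 changes at 3 h run from -0.37 for Dnajb9 to 0.13 for Creld2.

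In counts, none of the 10 genes was called at 1 h against 0.559% of all genes. Of the 10, Herpud1 alone was under an unadjusted p of 0.05 in the limma fit, beside 1683 of all 24675 genes. At 3 h 2 of 10 were called, Herpud1 upward and Edem1 downward, against 5.33% of all genes. The median change of the 10 was 0.01 at 1 h and -0.07 at 3 h, beside -0.00 and 0.02 for all genes. The share called among 10 genes rests on these 2 calls, of which Edem1 depends on the arrays used.

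With time, Hspa5, Dnajb9 and Sdf2l1 fell in the hepcidin groups, and in the PBS groups none of these 3 passed in the main fit. The change of Hspa5 was of like size with PBS and with hepcidin. Between 1 h and 3 h Hspa5 changed by -0.23 in the PBS groups (adjusted p = 0.146) and fell by 0.24 in the hepcidin groups (adjusted p = 0.0389). Its arrays read 11.30 to 11.43 and 11.37 to 11.39 at 1 h but 11.09 to 11.16 and 11.10 to 11.17 at 3 h, so every array at 1 h was above every array at 3 h. The call in the hepcidin groups was lost without any one of 10 arrays (adjusted p from 0.0523 to 0.122), all but PBS 1 h replicates 1 and 3. It was also lost with a second quantile normalization (0.0735), array weights (0.0505), only the compared groups (0.155) and a fold minimum of 1.5. The Hspa5 change with PBS passed with a trended and robust prior (adjusted p = 0.0129). It also passed with an unmoderated linear model (0.0391) and with genes above the median level (0.0433). Sdf2l1 changed by -0.28 with PBS (adjusted p = 0.294) and fell by 0.54 with hepcidin (adjusted p = 0.00747). The latter call was lost with only the compared groups (0.0651) and with a fold minimum of 1.5. Creld2 changed by -0.26 (adjusted p = 0.228) and -0.23 (adjusted p = 0.161) in the same order and passed in neither.

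Dnajb9 changed by -0.15 with PBS (adjusted p = 0.686) and fell by 0.42 with hepcidin (adjusted p = 0.0289). That call was lost without any one of the 3 hepcidin 1 h arrays or hepcidin 3 h replicate 3 (adjusted p from 0.0677 to 0.101). It was also lost with an unmoderated linear model (0.0610), only the compared groups (0.102) and a fold minimum of 1.5. Over time 1 of the 10 genes was called with PBS (Herpud1) and 4 with hepcidin (Herpud1 upward, Hspa5, Dnajb9 and Sdf2l1 downward), beside 0.45% and 5.05% of all genes. For none of the 3 that fell was the hepcidin effect at 3 h minus 1 h called (adjusted p = 0.984 for Hspa5, 0.567 for Dnajb9 and 0.601 for Sdf2l1).

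The surrounding pathway was read through 109 further genes in 4 lists: 29 chaperones and folding enzymes, 29 genes of ER-associated degradation, 22 sensors and regulators of the unfolded protein response and 29 genes of the translocon and early secretory pathway. At 1 h none was called, and 4 were under an unadjusted p of 0.05 in the limma fit, beside 1683 of all 24675 genes. At 3 h 7 were higher and 3 lower (9.17% of the list against 5.33% of all genes). Neither the degradation list nor the translocon list held a called gene. In the limma fit 10 of 29 and 1 of 29 were under an unadjusted p of 0.05, beside 4166 of all 24675 genes. List medians at 3 h were 0.01, 0.05, 0.09 and 0.02 in the order given, beside 0.02 for all genes. The share over all genes includes genes that read low and is not that of genes at a like level. When only genes above the median level were tested, 1727 were called at 3 h, 13 of them from the 4 lists. The count of 10 called genes fell when single 3 h arrays were left out: of the PBS arrays, replicate 3 left 3 calls, replicate 1 left 4 and replicate 2 left 6, and of the hepcidin arrays replicate 3 left 6.

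The calls lay mostly among the regulators, 5 higher and 2 lower of 22 (31.8%, against 5.33% of all genes). The lists were chosen with earlier results of these data known, so the shares called in them describe the chosen genes only. Traf2, an adaptor that links IRE1 and TNF receptors to kinase signalling, rose by 0.64 (SE 0.07, adjusted p = 0.000149). It read 6.65, 6.75 and 6.80 with PBS and 7.32, 7.38 and 7.42 with hepcidin. Chac1, which encodes a glutathione-degrading enzyme and is an ATF4 target, rose by 0.75 (adjusted p = 0.00148). Trib3, a pseudokinase gene also induced through ATF4, rose by 0.63 (adjusted p = 0.00157). These 3 kept their call at 3 h under all 23 alternatives.

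Atf4 itself was 0.30 higher (adjusted p = 0.0214), at 9.99, 10.10 and 10.15 against 9.69, 9.76 and 9.87. It missed the threshold without PBS 3 h replicate 1 or 3 or hepcidin 3 h replicate 1 or 3 (adjusted p from 0.0579 to 0.105). Atf6b, a relative of Atf6, was 0.32 higher (adjusted p = 0.0125, and from 0.0509 to 0.0526 without PBS 3 h replicate 3 or 1). Creb3l2, a membrane-bound transcription factor gene, changed by -0.43 (adjusted p = 0.0289, and from 0.0923 to 0.109 without PBS 3 h replicate 1 or 3 or hepcidin 3 h replicate 3). Atf6b and Creb3l2 were singled out after their values were seen. Eif2ak3, the gene of PERK, changed by -0.26 (adjusted p = 0.0495), a call lost without any one of 11 arrays (adjusted p from 0.0516 to 0.156), all but hepcidin 3 h replicate 2. Ern1, the gene of IRE1, changed by 0.04 (95% interval -0.12 to 0.20, adjusted p = 0.833). Ddit3, the gene of the ER stress factor CHOP, changed by 0.16 with overlapping groups (95% interval -0.13 to 0.45, adjusted p = 0.623).

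Among chaperones and folding enzymes 2 were higher and 1 lower of 29 at 3 h (10.3%, against 5.33% of all genes). Ero1a, an oxidase that renews protein disulfide isomerase, was 0.33 higher (adjusted p = 0.0345). Serp1, which stabilises membrane proteins at the translocon, was 0.28 higher (adjusted p = 0.0330). Erp29, an ER protein with a thioredoxin-like fold, changed by -0.33 (adjusted p = 0.0152). Each of these calls was lost without some single arrays: 6 for Ero1a (adjusted p up to 0.150: all 3 PBS 3 h arrays, hepcidin 3 h replicates 1 and 2, and hepcidin 1 h replicate 2), 5 for Serp1 (up to 0.132: all 3 PBS 3 h arrays and hepcidin 3 h replicates 1 and 2) and 3 for Erp29 (up to 0.0759: PBS 3 h replicates 2 and 3 and hepcidin 3 h replicate 3). Calr, the gene of the lectin chaperone calreticulin, changed by -0.02 (95% interval -0.15 to 0.12, adjusted p = 0.920). Syvn1, which encodes the ubiquitin ligase HRD1, changed by 0.13 (95% interval -0.01 to 0.27, adjusted p = 0.354).

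**Figure D4:**
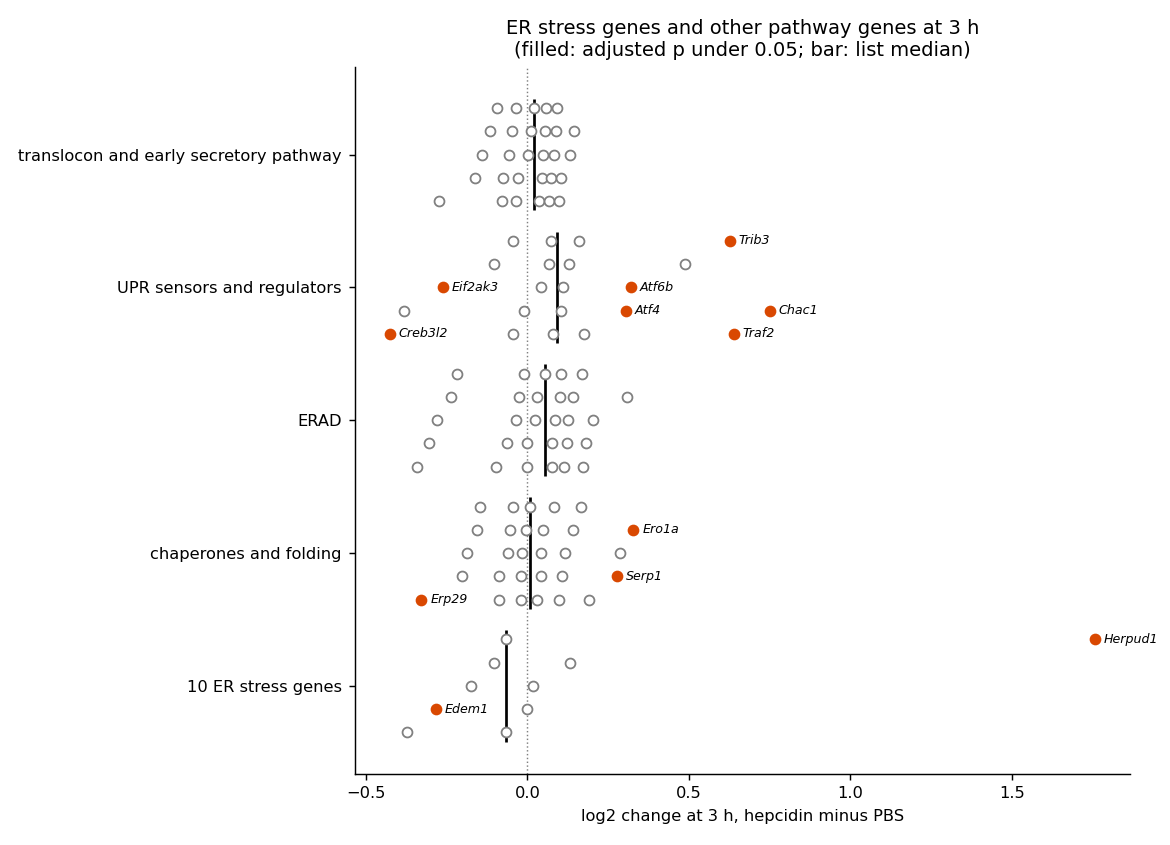
Log2 change with hepcidin at 3 h (x axis) for the 10 genes and for 109 other genes in 4 pathway lists; each point is a gene, filled where the adjusted p was under 0.05, and bars are list medians. Herpud1 at 1.76 lies beyond every other gene shown, and the filled points among the others are mostly regulators. The lists were chosen with earlier results of these data known.

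The regulators also changed with time in the PBS cells. There 4 of the 109 genes were lower at 3 h than at 1 h and none higher (3.67% against 0.45% of all genes). Chac1 fell by 1.71 (adjusted p = 8.03e-05), from 7.69, 7.77 and 8.00 to 5.92, 6.17 and 6.24. Ddit3 changed by -0.76 (adjusted p = 0.0348), Trib3 by -0.70 (adjusted p = 0.00971) and Atf4 by -0.58 (adjusted p = 0.00464). The Ddit3 call was lost without any one of 8 arrays (adjusted p from 0.0543 to 0.139), among them every PBS array, hepcidin 1 h replicate 2 and hepcidin 3 h replicate 2, and the Trib3 call without PBS 3 h replicate 2 (0.0537). The count of 4 became 2 without that array. Over 23 alternatives, Atf4 and Trib3 each lost this call in 2 (adjusted p up to 0.0551 and 0.0583), and Chac1 kept it in all.

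With hepcidin Chac1 fell by 1.34 (adjusted p = 3.6e-05) and Atf4 by 0.30 (adjusted p = 0.0270) over the same interval, so at 3 h both were above PBS at 3 h and below their own 1 h level. Trib3 changed by -0.10 with hepcidin (adjusted p = 0.679). Herpud1 followed another course: it was higher with hepcidin at 3 h than at 1 h. Of the 109 genes the hepcidin effect at 3 h minus 1 h was called for Traf2 alone (0.55, adjusted p = 0.0231). That is 0.917% of the list against 1.03% of all genes. The Traf2 call was lost without any one of 9 arrays (adjusted p from 0.0545 to 0.0716), all but PBS 1 h replicate 1, PBS 3 h replicate 1 and hepcidin 3 h replicate 1. In all, 1 of the 109 was higher and 7 lower at 3 h than at 1 h with hepcidin (7.34% of the list against 5.05% of all genes). Serp1 was the one that rose (0.38, adjusted p = 0.00536), and Chac1, Atf4, Eif2ak3 and Erp29 were among those that fell.

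**Figure D5:**
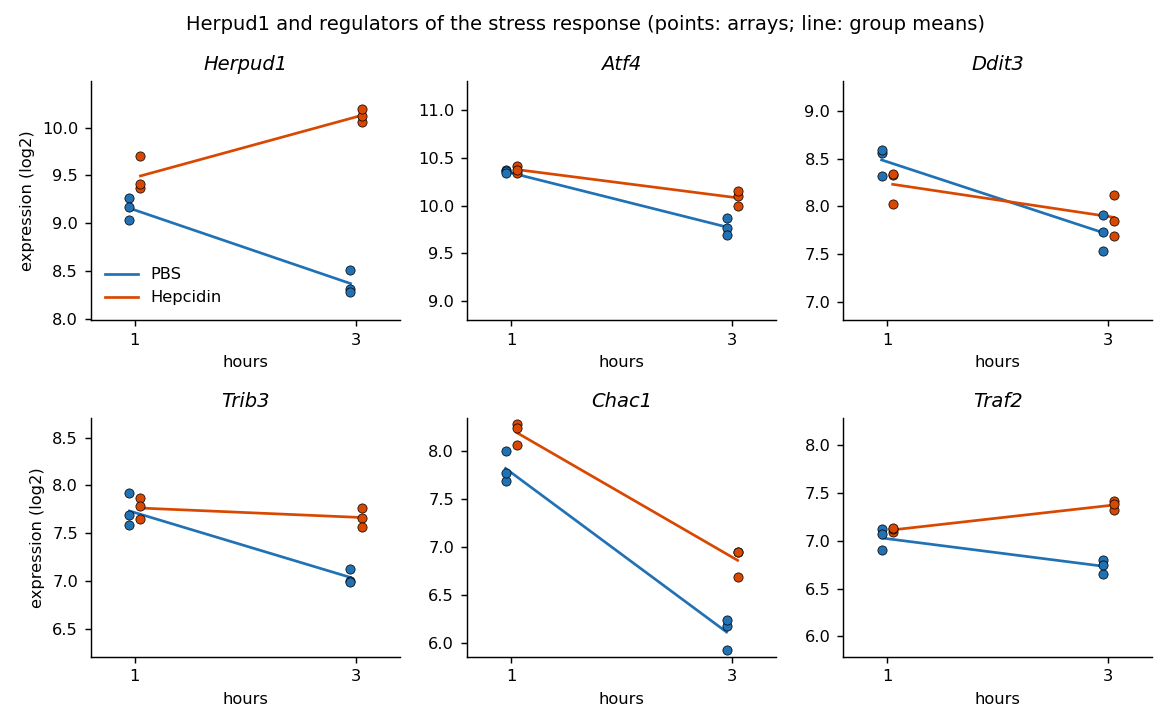
Log2 expression (y axis) against hours of treatment (x axis) for Herpud1, Atf4, Ddit3, Trib3, Chac1 and Traf2; points are arrays, lines join group means, blue is PBS and orange hepcidin. With PBS Herpud1, Atf4, Ddit3, Trib3 and Chac1 were lower at 3 h, and with hepcidin Herpud1 was higher at 3 h while Atf4 and Chac1 were lower.

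The genes whose values followed Herpud1 most closely over the 12 arrays were sought outside the ER stress set. Predicted gene models and numbered clones were left out as well. Pearson's r was 0.986 for Jdp2 (a repressor of the AP-1 family), 0.978 for Lmo4 (a LIM-domain transcription cofactor), 0.973 for Ezr (the membrane-cytoskeleton linker ezrin), 0.963 for Osgin2 and 0.953 for Larp1 (an RNA-binding regulator of translation). These coefficients describe 12 arrays that fall into 4 groups, so they mostly reflect the group means. Leaving out replicate 2 of PBS at 1 h, or replicate 3 of hepcidin at 3 h, kept 3 of these 5 among the 5 most like. Jdp2 read 6.07, 6.09 and 6.17 with PBS and 7.60, 7.60 and 7.72 with hepcidin at 3 h. It was 1.53 higher with hepcidin at 3 h, Osgin2 0.94, Lmo4 0.93, Ezr 0.64 and Larp1 0.36 (adjusted p = 0.00398 for Larp1 and lower for the other 4).

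Within the ER stress set the correlation with Herpud1 was 0.39 for Creld2, 0.14 for Hspa5, 0.03 for Sdf2l1, -0.07 for Sel1l, -0.21 for Hsp90b1, -0.60 for Xbp1, -0.61 for Dnajb9, -0.80 for Edem1 and -0.82 for Atf6. After the group means were taken out, r with Herpud1 was 0.72 for Jdp2, 0.56 for Lmo4, 0.48 for Ezr, 0.27 for Larp1 and 0.26 for Osgin2. On that measure Hsp90b1 (0.60) stood above all of these but Jdp2, and Sdf2l1 (0.31) above Larp1 and Osgin2. Dnajb9 (-0.56), Atf6 (-0.53) and Sel1l (-0.16) were negative. Hspa5 stood at 0.26, Xbp1 at 0.24, Creld2 at 0.15 and Edem1 at 0.02.

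The identity of the cells was read from marker lists. All 8 macrophage markers on the array, among them Adgre1, Csf1r, Cd68 and Itgam, were above the array median, with a list mean per array between 10.8 and 11.0 in each group. Above it were none of 8 dendritic cell markers, 4 of 9 markers of B and plasma cells, 4 of 9 neutrophil markers and 2 of 8 fibroblast markers. Plasma cells, the secretory stage of the B lineage, have high ER chaperone levels. The markers of B and plasma cells above the median were Ighm (8.29), Sdc1 (6.71), Cd79b (5.56) and Mzb1 (5.00). The marker with the highest mean in its own list was Ighm at 8.29 for B and plasma cells, Col1a1 at 6.06 for fibroblasts, Mpo at 5.42 for neutrophils and Ccr7 at 4.82 for dendritic cells. None of the markers of other cell types passed for hepcidin against PBS at 1 h or 3 h. Of each list 0 to 2 were under an unadjusted p of 0.05 (limma), beside 1683 of 24675 genes at 1 h and 4166 at 3 h. Mpo changed by -0.62 with time in the hepcidin groups (adjusted p = 0.0274). Among macrophage markers Cd14 rose by 0.80 and Spi1 by 0.30 at 3 h, and Mertk fell by 1.08. The part of these shifts in the ER stress genes was not tested. Array medians ran from 4.84 to 4.94, and hepcidin 3 h replicate 3 had the highest median, the narrowest spread of values (SD 2.20) and the lowest value of its group for 8 of the 10 ER stress genes.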

How the data were processed

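Gene expression of mouse bone marrow-derived macrophages was measured on Affymetrix whole-transcript arrays, 3 per group in 4 groups. The values used are log2 values in the table deposited by the authors. RMA and Partek are named in the submitters' processing notes, without versions. The log base is not stated there and was taken as 2 because RMA gives log2 values. RMA normalizes arrays to one common distribution, so a change shared by most genes would not be seen. No source used here names a genome build.

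Of 25429 probe sets, 24675 carry 1 gene name each and 754 carry none. Every gene has 1 probe set. Values of different probe sets do not give relative abundance, and percentiles and the array median are used only to say whether a probe set reads high or low on the array. A linear model with 4 group means was fitted to all named genes with limma 3.58.1 in R 4.3.3 (lmFit, contrasts.fit, eBayes, 8 residual and 4.11 prior degrees of freedom). P-values were adjusted by the Benjamini-Hochberg method over all named genes within each of 5 comparisons, and adjusted p under 0.05 was called. Intervals are 95% intervals, not adjusted for the number of genes. The number of arrays limits the precision. The fit was tested on simulated data with known changes. Errors were drawn independently for each gene and array, so the simulation did not cover deviations shared between samples.

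The 10 genes and the lists were chosen with earlier results of these data known. Named are all 10 genes, up to 3 called genes with the largest change from each pathway list at 1 h and at 3 h, Atf4, Ddit3, Ern1, Eif2ak3, Calr and Syvn1 whatever their result, the 5 genes most like Herpud1, and of the lists for other cell types the marker with the highest mean and those that passed. The 10 genes, predicted gene models and numbered clones could not be among the 5 most like Herpud1. B and plasma cell markers above the array median were also named. Alternatives were a replicate block, another prior, an unmoderated model, a filter on low genes, a second quantile normalization, median centring, array weights, a fit of the compared groups only, inclusion of unnamed probe sets, another threshold, a fold minimum of 1.5 and leaving out each array.

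Replicate numbers in the labels recur in each group. The deviations of samples with the same number from their group means correlated with r from -0.01 to 0.25 (median 0.11, 9 of 18 pairs over 0.1), against a median of -0.04 and 1 of 36 pairs over 0.1 for different numbers. Not every pair was over 0.1, and the labels state no shared origin, so the numbers were not taken to pair the samples. Motifs were searched in RefSeq upstream windows (GRCm38.p6), on both strands.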

Additional observations from a re-analysis of the deposited data

Results flagged for a closer look

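For 6 of the genes named, the effect of hepcidin on log2 expression differed between 3 h and 1 h by the test of that difference itself. It was larger at 3 h by 1.42 for Herpud1, 1.15 for Jdp2, 0.73 for Lmo4, 0.65 for Osgin2, 0.55 for Traf2 and 0.52 for Ezr (limma, adjusted p = 0.000765, 0.00256, 0.00634, 0.0197, 0.0231 and 0.0180 in that order). In each the 3 hepcidin arrays at 3 h lay above the 3 PBS arrays at 3 h. Jdp2, Lmo4, Osgin2 and Ezr were picked for their likeness to Herpud1 over the same arrays, so they are no independent support. The Herpud1, Jdp2 and Lmo4 calls held under every alternative run. The Osgin2 call was lost without any one of 6 arrays (adjusted p from 0.0538 to 0.0617: PBS 1 h replicates 2 and 3, hepcidin 1 h replicates 2 and 3, PBS 3 h replicates 2 and 3), the Ezr call without any one of 5 (0.0520 to 0.0589: the same but for PBS 1 h replicate 2) and the Traf2 call without any one of 9.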

How the results depend on the processing

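The rise of Herpud1 with hepcidin at 3 h kept its direction and its call under all 23 alternatives (1.71 to 1.83 on the log2 scale, adjusted p up to 8.1e-05), and so did its hepcidin effect at 3 h minus 1 h under all 22 that apply (this difference uses all 4 groups, so fitting only the compared groups changes nothing) (1.36 to 1.53) and its rise with time under hepcidin (0.57 to 0.74). Its 1 h difference (0.23 to 0.40) stayed short of the threshold throughout. None of the 10 genes and none of the 109 others was called at 1 h in any alternative. With 3 arrays a group, smaller changes such as those of Edem1, Dnajb9 and Atf6 fall near the threshold, and their calls turn on the setting. Over the 50 changes of the 10 genes, 1060 of 1140 values kept direction and call, 40 lost the call, 14 gained it and 26 changed sign, the last all close to 0.

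Counts of calls among all genes, the 10 genes and the 109 others at 3 h (1316, 2 and 10) became 805, 1 and 3 with only the compared groups, 480, 1 and 3 with a fold minimum of 1.5, and 837 to 1287, 1 to 3 and 3 to 10 without single arrays. The 10 genes gave 1 call and the others 6 with median centring, and the 10 gave 4 with a trended and robust prior or with genes above the median level. For the hepcidin effect at 3 h minus 1 h (254 genes; 1 of the 109 others) the counts were 433 with the trended prior, 412 with genes above the median, 391 at adjusted p under 0.1 and 141 to 234 without single arrays. Of the others it was 2 under the replicate block, the trended prior, genes above the median, the second quantile normalization and adjusted p under 0.1, 0 with median centring or the fold minimum, and 0 to 1 without single arrays.

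For PBS at 3 h against 1 h (111 genes; 1 of the 10; 4 of the others) all genes gave 240 with the replicate block, 319 with the trended prior, 333 with genes above the median, 64 with median centring, 285 with array weights, 7 with only the compared groups, 248 at adjusted p under 0.1, 42 with the fold minimum and 23 to 126 without single arrays. The 10 genes gave 2 with the trended prior, the unmoderated model or genes above the median, 0 with only the compared groups, and 0 to 1 without single arrays. The others gave 7 with array weights, 1 with only the compared groups and 2 to 5 without single arrays. For hepcidin at 3 h against 1 h (1246, 4 and 8) the counts were 616, 1 and 2 with only the compared groups, 407, 1 and 1 with the fold minimum, and 721 to 1178, 2 to 4 and 2 to 7 without single arrays; the others gave 5 with array weights. The replicate block changed no other count by over 1.5 times and no call of the 10 genes, and of the other genes named it ended the call of Eif2ak3 at 3 h (adjusted p = 0.0604). In their deviations from the group means, 10 of 12 arrays correlated best with an array of their own number, a hint from the data and not from the design.

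Changes of sign were these. With the second quantile normalization the 3 h minus 1 h effect was 0.0094 for Xbp1 and 0.031 for Sel1l, the Sel1l change was -0.020 at 1 h and 0.011 at 3 h, and Calr was 0.032 at 3 h. With median centring the effect was -0.0075 for Hsp90b1 and -0.0079 for Creld2. With array weights Sel1l changed by -0.0016 at 1 h and 0.00027 at 3 h, with an effect of 0.0019. Without single arrays the effect ran from -0.049 to 0.017 for Hspa5, -0.060 to 0.0089 for Xbp1, -0.035 to 0.081 for Hsp90b1, -0.034 to 0.025 for Sel1l and -0.020 to 0.096 for Creld2. The 1 h change ran from -0.0085 to 0.048 for Edem1 and -0.028 to 0.032 for Sel1l, and the 3 h change from -0.148 to 0.023 for Sdf2l1, -0.021 to 0.014 for Sel1l, -0.0061 to 0.089 for Ern1 and -0.045 to 0.0027 for Calr. The cause was not tested.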
